A study of Mus musculus with 18 samples.

Results

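Genes for the fibrillar collagens of types I, III and V were followed across fibroblasts and pluripotent cells. They were taken as every probe set with a gene symbol beginning Col1a, Col3a or Col5a in the list of probe sets that the authors selected as at least 10-fold below the mean of mouse embryonic fibroblasts (MEFs) in each other array. This rule gave 3 probe sets for 3 genes, 1423669_at for Col1a1, 1427884_at for Col3a1 and 1450625_at for Col5a2. They came from 462 listed probe sets with a symbol, of 45037 probe sets analysed after control probe sets were left out. Symbols were given for 2.07% of the probe sets, those of the authors' lists, so other chains of these collagens, such as Col1a2 and Col5a1, were not analysed here.

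Fibrillar collagens are the rope-like proteins of the extracellular matrix. Type I collagen is a trimer of alpha 1 chains, encoded by Col1a1, and an alpha 2 chain, type III collagen is a trimer of the single chain encoded by Col3a1, and type V collagen, whose alpha 2 chain is encoded by Col5a2, is built into type I fibrils and takes part in starting them and in setting their width. Fibroblasts are a main source of these chains, and loss of the fibroblast matrix programme is a known part of reprogramming to pluripotency, in which mesenchymal cells take on epithelial features.

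The study hybridised 18 RNA samples to Affymetrix mouse arrays. The labels give every sample the same pair of strains, one that carries the doxycycline-dependent activator rtTA*M2 at the ROSA 26 locus and B6.129S4-POU5f1tm2Jae/J, which has a modified Pou5f1 locus. There were 3 samples of MEFs taken at E13.5 of gestation and used up to the fourth passage, 3 clones of mouse embryonic stem cells (mESCs), and 4 clones of each of 3 kinds of induced pluripotent stem cells (iPSCs) made from such MEFs with PiggyBac vectors. The vectors of the OSKM group carried Oct4, Sox2, Klf4 and c-Myc, those of the OE+EpEX group Oct4 and the epithelial cell adhesion molecule EpCAM, and those of the KE+EpEX group Klf4 and EpCAM, and both EpCAM groups were also given EpEX, the soluble extracellular domain of EpCAM. The factors were induced with 1.5 µg/mL doxycycline for 21 days, and the transfected cells were plated with feeder cells, which are themselves embryonic fibroblasts. Each iPSC and mESC sample was a clone, the array numbers of different groups did not pair, and the labels call the MEF samples biological replicates while the series' design text names a single primary culture, so the spread among MEFs may be technical.

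Values are log2 intensities that were deposited after each probe set had been centred on its median over the 18 arrays. A value of 0 is therefore that probe set's median and not an absence of signal, whether a transcript stood above background is unknown, and levels of different genes cannot be set against each other. Only differences between arrays are compared below. In whole cultures, a smaller share of a cell type and less RNA in each cell of that type cannot be told apart.

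The MEFs carried all 3 collagens far above every other group. For Col1a1 the MEF values were 5.49, 5.19 and 5.15 on the centred log2 scale in samples 1, 2 and 3. The mESC clones were at −0.85, −0.41 and −0.99. The OSKM clones were at −0.08, −0.14, −0.19 and −0.40. The MEF samples thus lay close together, and both the OSKM and the mESC clones lay below 0. The OE+EpEX clones were at 0.18, 0.08, 0.29 and 1.61 for Col1a1. The KE+EpEX clones were at 1.70, 0.96, −0.49 and −0.64. A single OE+EpEX clone and a pair of KE+EpEX clones were high, and the remaining KE+EpEX clones lay among the mESCs.

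For Col3a1 the MEF values were 5.51, 9.19 and 9.28. The mESC clones were at −0.78, −0.95 and −0.44. The OSKM clones were at 0.09, −0.15, −0.38 and −0.29. Here MEF sample 1 stood well below the other MEF samples, while the mESC and OSKM clones again were tightly grouped. The OE+EpEX clones were at 0.27, −0.09, 0.96 and 2.67 for Col3a1. The KE+EpEX clones were at 3.01, 1.58, −0.54 and −0.60. The same clones were high as for Col1a1, with OE+EpEX clone 3 next.

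For Col5a2 the MEF values were 4.63, 6.83 and 6.97. The mESC clones were at −1.74, −1.70 and −1.20. The OSKM clones were at 0.25, −0.25, −0.29 and −0.04. MEF sample 1 was again the lowest of the MEFs, and the mESC clones lay apart from the OSKM clones by more than either group's spread. The OE+EpEX clones were at 0.07, 0.04, −0.06 and 0.77 for Col5a2. The KE+EpEX clones were at 1.38, 0.37, −1.40 and −0.58. KE+EpEX clone 3 reached the level of the mESCs and clone 4 did not.

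**Figure D1:**
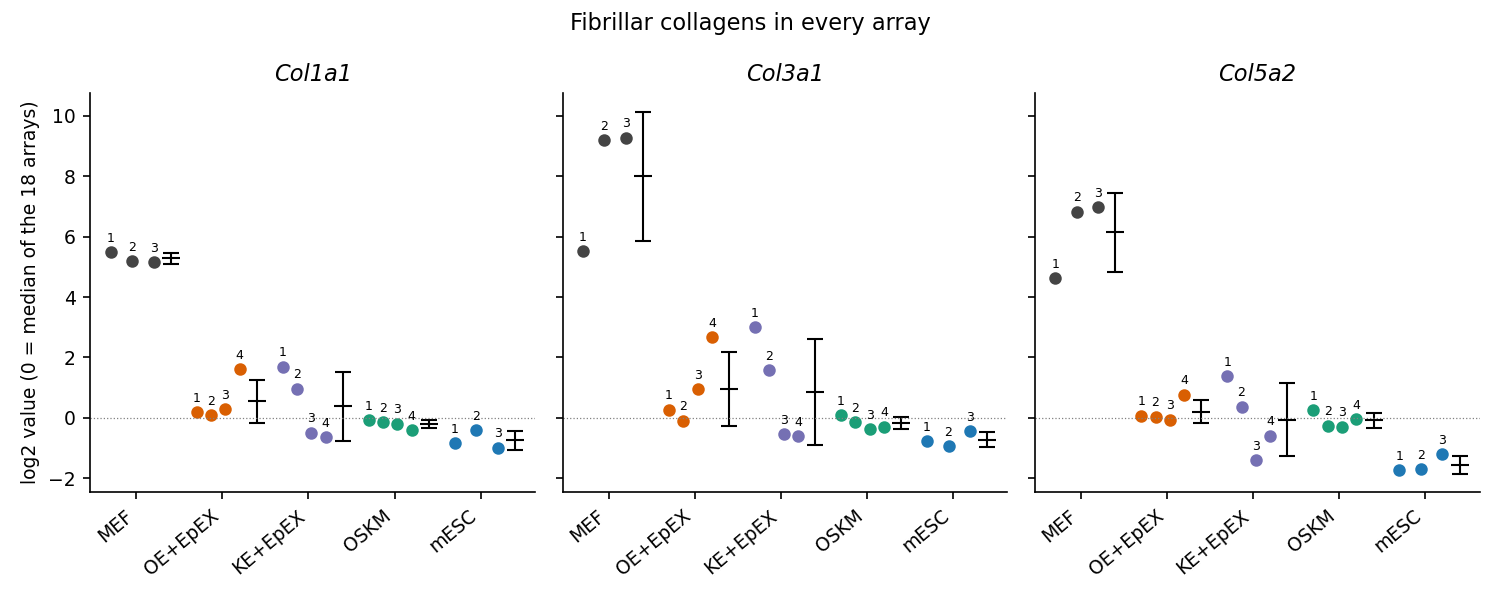
Centred log2 value (vertical axis) of Col1a1, Col3a1 and Col5a2 in each of the 18 arrays, by group, with the sample or clone number above each point and, to its right, the group mean with SD. The MEFs lie between 4.63 and 9.28, above every other array, MEF sample 1 is lower than the other MEFs for Col3a1 and Col5a2, and the OE+EpEX and KE+EpEX clones spread more widely than the OSKM and mESC clones for Col1a1 and Col3a1.

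The group means ran in the same order for the 3 genes, from MEFs through OE+EpEX, KE+EpEX and OSKM to mESCs. For Col1a1 the means were 5.28 ± 0.18 (SD, n = 3), 0.54 ± 0.72 (SD, n = 4), 0.38 ± 1.14 (SD, n = 4), −0.20 ± 0.14 (SD, n = 4) and −0.75 ± 0.30 (SD, n = 3). For Col3a1 they were 7.99 ± 2.15, 0.95 ± 1.23, 0.86 ± 1.75, −0.18 ± 0.20 and −0.72 ± 0.26 over the same numbers of samples. For Col5a2 they were 6.14 ± 1.31, 0.20 ± 0.38, −0.06 ± 1.20, −0.08 ± 0.25 and −1.55 ± 0.30. Neighbours among OE+EpEX, KE+EpEX and OSKM did not differ beyond their spread for any of the 3 genes, as tested below, and the step from OSKM to mESC passed the test for Col5a2 and not for Col1a1 or Col3a1.

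The distance from MEFs is a description and was not tested, since the list that gave the members required it. The MEF mean exceeded the mESC mean 65.1-fold for Col1a1, 420-fold for Col3a1 and 206-fold for Col5a2. It exceeded the OSKM mean 44.7-fold, 289-fold and 74.8-fold in the same order of genes. The distance was smallest for the OE+EpEX group, at 26.6-fold, 131-fold and 61.3-fold, and for the KE+EpEX group it was 29.7-fold, 140-fold and 73.5-fold. Of the 15 arrays other than MEFs, KE+EpEX clone 1 came closest to the MEF mean for all 3 genes, lying 11.9-fold below it for Col1a1, 31.6-fold for Col3a1 and 27.1-fold for Col5a2. Col1a1 was thus nearest to the limit of the list, where the smallest ratio inside was 10.0282-fold and the largest just outside it was 9.99688-fold.

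These folds depend on which MEF sample is the reference. MEF sample 1 was 1.25-fold higher than the mean of samples 2 and 3 for Col1a1, a log2 difference of 0.32, but 13.2-fold lower for Col3a1 (−3.72) and 4.84-fold lower for Col5a2 (−2.27). Against samples 2 and 3, the OSKM clones lay 41.5-fold, 682-fold and 126-fold lower for Col1a1, Col3a1 and Col5a2. Against sample 1 alone they lay 51.7-fold, 51.8-fold and 26.1-fold lower. Type I and type III chains therefore showed a like distance when measured from MEF sample 1 and very different distances when measured from the others.

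The shift of MEF sample 1 was not particular to collagens. Over the 462 listed probe sets the difference of sample 1 from samples 2 and 3 had a median of −1.83 on the log2 scale, with 10% below −5.10 and 10% above 0.08, and 409 were below 0. Over all 45037 probe sets the median was 0.05, with the corresponding limits at −0.83 and 0.74. Of the listed probe sets, 19.9% lay lower than Col3a1, 41.6% lower than Col5a2 and 92.0% lower than Col1a1. Col5a2 was therefore near the middle of the list, Col3a1 in its lower part, and Col1a1 among the few that were not lower in sample 1. With 1 sample against 2 this has no test. The marker list for fibroblasts and feeder cells, described below, averaged 4.40 in MEF sample 1 and 6.24 and 6.17 in the others. The 11 pluripotency markers averaged from −7.63 to −7.57 in the 3 MEF samples. Single markers still differed, with 3 of the 11 lower in sample 1, among them Sox2 at −3.16, and a median difference of 0.29. The part of these differences between MEF samples in the result was not tested.

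**Figure D2:**
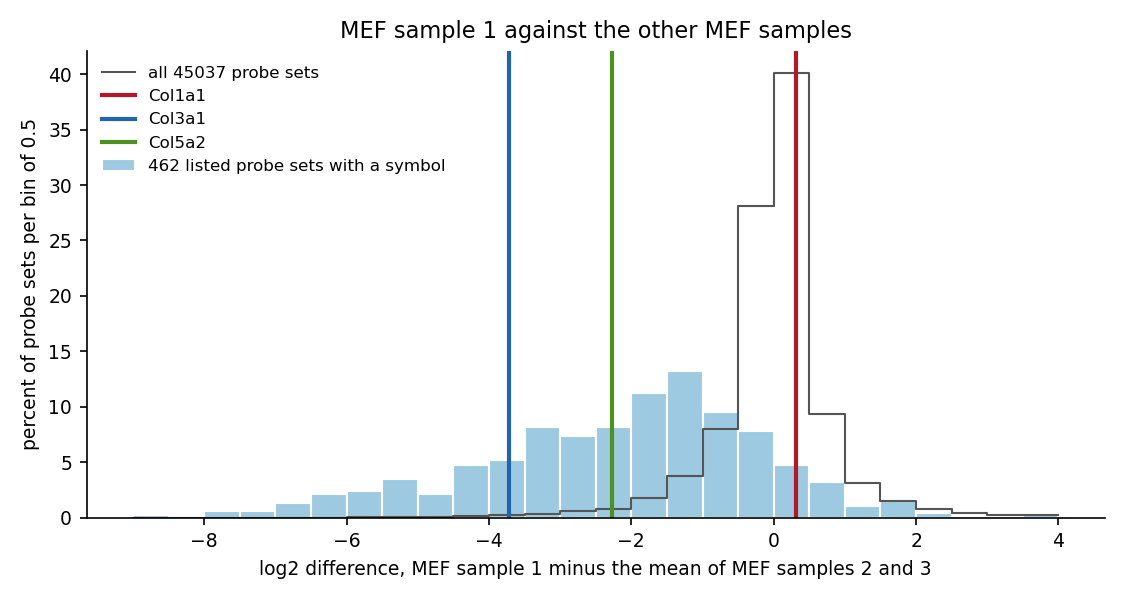
Log2 difference of MEF sample 1 from the mean of MEF samples 2 and 3 (horizontal axis) as the percent of probe sets in each bin (vertical axis), for the 462 listed probe sets with a symbol (bars) and all 45037 probe sets (line), with the 3 collagens as vertical lines. Col3a1 at −3.72 and Col5a2 at −2.27 lie within the broad distribution of the list, and Col1a1 at 0.32 lies in the peak of all probe sets.

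Col3a1 and Col5a2, which shared this pattern, are adjacent protein-coding genes on chromosome 1 in RefSeq (GRCm38.p6), whereas Col1a1 lies on chromosome 11. Of the 3 genes, only Col3a1 had an entry in the RefSeq promoter table used here. The 250 bases before its annotated start, on the plus strand at chr1:45311288-45311537 (GRCm38.p6), are shown because Twist1, Snai2 and Zeb2, transcription factors of the regulator list below, are known to bind E-boxes, and capitals mark each match to the E-box letters CANNTG, whose reverse complement is the same motif.

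Col3a1: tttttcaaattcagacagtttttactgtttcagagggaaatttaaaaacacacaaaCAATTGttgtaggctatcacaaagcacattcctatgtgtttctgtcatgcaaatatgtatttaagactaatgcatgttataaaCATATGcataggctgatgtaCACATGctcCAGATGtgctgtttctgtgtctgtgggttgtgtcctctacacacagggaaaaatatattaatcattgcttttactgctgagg

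There were 4 matches to CANNTG in this window, and 66.0% of the 27025 promoters of the table held at least 1 in a window of the same length. The stricter form CAGGTG was absent on both strands, against a share of 17.1% of promoters that held it, and CCAAT was absent on both strands, against 34.5%. TATAAA occurred once, with no overlap with the E-box letters, as it did at least once in 13.0% of promoters on either strand. These matches describe the sequence and say nothing of binding in these cells.

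Among the pluripotent groups, Col5a2 was the only fibrillar collagen called different from mESCs, and it was higher in all 3 kinds of iPSC. A probe set was called at a Benjamini-Hochberg adjusted p under 0.05 over all probe sets together with a log2 difference of 1 or more, in limma fitted to the 15 arrays of the 4 pluripotent groups. The list behind the members set how far below the MEFs each of these arrays had to lie, and used no difference among them. In OE+EpEX clones 1 of the 3 members was called, against 3.43% of all probe sets. Col5a2 was 3.37-fold higher there than in mESCs (log2 difference 1.75, SE 0.45, adjusted p = 0.0160). In KE+EpEX clones 1 of 3 was called, against 3.89% of all probe sets, and Col5a2 was 2.80-fold higher (1.49, SE 0.45, adjusted p = 0.0329). In OSKM clones 1 of 3 was called, against 3.73%, and Col5a2 was 2.76-fold higher (1.46, SE 0.45, adjusted p = 0.0356). The 3 comparisons share the mESC clones and are not independent of each other.

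These calls were close to the threshold and depended on the arrays in the fit and on the scaling. With the MEFs added to the fit, whose SD for Col5a2 was 1.31, no member was called in any of the 3 comparisons and the adjusted p for Col5a2 was 0.0672, 0.115 and 0.119 for OE+EpEX, KE+EpEX and OSKM. With quantile normalization none was called either, and the log2 differences of Col5a2 were 1.04, 0.75 and 0.77 (adjusted p = 0.145, 0.303 and 0.256 in limma). Leaving out 1 array at a time, Col5a2 stayed called in 13 of 15 fits for OE+EpEX (adjusted p from 0.00183 to 0.0632), in 10 of 15 for KE+EpEX (0.00220 to 0.113) and in 8 of 15 for OSKM (0.00499 to 0.121). The call was lost without mESC clone 1 or 2 for OE+EpEX, without any mESC clone or KE+EpEX clone 1 or 2 for KE+EpEX, and without any mESC or OSKM clone for OSKM.

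Col1a1 and Col3a1 were not called against mESCs, with wide intervals. In OE+EpEX clones the log2 difference from mESCs was 1.29 for Col1a1 (95% interval 0.29 to 2.30, adjusted p = 0.0840 in limma) and 1.68 for Col3a1 (0.10 to 3.25, adjusted p = 0.154). In KE+EpEX clones it was 1.13 for Col1a1 (0.13 to 2.14, adjusted p = 0.125) and 1.59 for Col3a1 (0.01 to 3.16, adjusted p = 0.178). Without KE+EpEX clone 1 these were 0.69 and 0.87, and without OE+EpEX clone 4 the OE+EpEX difference of Col3a1 was 1.10 (adjusted p = 0.326, 0.440 and 0.373 in limma). In OSKM clones it was 0.54 for Col1a1 (−0.46 to 1.55, adjusted p = 0.529) and 0.54 for Col3a1 (−1.03 to 2.11, adjusted p = 0.720). These intervals use a spread pooled over all pluripotent groups, and the OSKM and mESC clones varied less than that. With only OSKM and mESC clones in the fit, the SE was 0.14 for both genes (adjusted p = 0.0155 and 0.0182 in limma). Both differences stayed below the log2 limit of 1 and were not called. Col1a1 passed the test in OE+EpEX when KE+EpEX clone 1 or 4 was left out (adjusted p = 0.0320 and 0.0499 in limma) and in KE+EpEX when its clone 4 was left out (0.0313). The size of the Col3a1 difference in OE+EpEX clones was thus like that of the called Col5a2, and its error was larger.

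All OE+EpEX clones lay above all mESC clones for 3 of 3 members, a pattern held by 10.1% of all probe sets and 28.4% of those listed. All OSKM clones lay above all mESC clones for 3 of 3 members as well, against 14.0% of all probe sets and 19.7% of those listed. For Col1a1 this separation was small, with OSKM clone 4 at −0.40 and mESC clone 2 at −0.41. The KE+EpEX clones overlapped with the mESCs for each of the 3 genes.

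No member was called between any pair of iPSC groups. Between OE+EpEX and OSKM, where 0.0977% of all probe sets were called, the log2 difference was 0.75 for Col1a1 (95% interval −0.18 to 1.68), 1.13 for Col3a1 (−0.32 to 2.59) and 0.29 for Col5a2 (−0.60 to 1.17), with adjusted p in limma from 0.419 to 0.781. All OE+EpEX clones lay above all OSKM clones for Col1a1 and not for Col3a1 or Col5a2, and 6.71% of all probe sets had this order. Between KE+EpEX and OSKM, where 0.00222% of all probe sets were called, it was 0.59 (−0.34 to 1.52), 1.05 (−0.41 to 2.50) and 0.02 (−0.86 to 0.91). Between OE+EpEX and KE+EpEX, where 0% of all probe sets were called, it was 0.16 (−0.77 to 1.09), 0.09 (−1.37 to 1.55) and 0.26 (−0.62 to 1.15). At an unadjusted p under 0.05, 0 members passed in each of these 3 comparisons, against 7417, 5383 and 3723 of all probe sets, and the unpaired test of the study's methods called 0 members before and after adjustment. The intervals leave room for differences above 2-fold in either direction for Col3a1 between OE+EpEX and KE+EpEX.

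**Figure D3:**
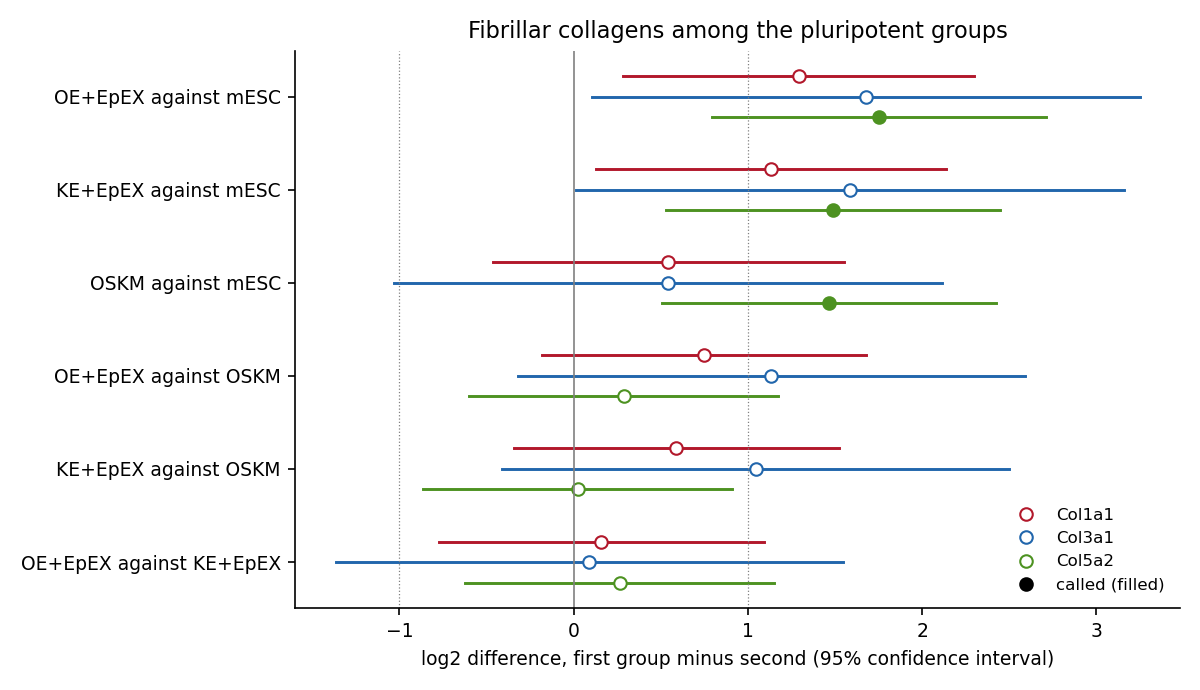
Log2 difference between pluripotent groups (horizontal axis, first group minus second, with the 95% confidence interval from limma) for Col1a1, Col3a1 and Col5a2 in each of 6 comparisons (vertical axis), with dotted lines at 1 and −1. Filled points mark the called differences, which are those of Col5a2 from mESCs (1.75, 1.49 and 1.46).

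The wide intervals came with uneven clones. KE+EpEX clone 1 was the highest of its group, and OE+EpEX clone 4 the highest of its own, for 3 of 3 members. The first held for 78.4% of the listed and 25.7% of all probe sets, the second for 69.5% and 27.5%, and both together for 59.1% and 9.64%, so the pattern was common in the list and not particular to collagens. Within the KE+EpEX group the values spanned 2.34 for Col1a1, 3.61 for Col3a1 and 2.78 for Col5a2 on the log2 scale. Within the OE+EpEX group they spanned 1.53, 2.76 and 0.83, and within the OSKM group 0.32, 0.46 and 0.54. Converted from log2 to shares of the geometric mean of the MEF samples, and with any background included, KE+EpEX clone 1 held 8.39% of it for Col1a1, 3.17% for Col3a1 and 3.69% for Col5a2. OE+EpEX clone 4 held 7.90%, 2.51% and 2.42%, and KE+EpEX clone 2 held 5.03%, 1.17% and 1.83%. These shares and their order among the genes depend on the MEF reference, for KE+EpEX clone 1 held 7.25%, 17.7% and 10.5% of MEF sample 1 and 9.03%, 1.34% and 2.18% of samples 2 and 3.

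On average, markers of fibroblasts and feeder cells moved with the collagens across these clones. Of the 16 markers 9 had a symbol (12 probe sets, among them Pdgfra, Pdgfrb, Prrx1, Dcn and Lum), and all 12 were in the list of lower probe sets, so they share the collagens' selection. Their mean was 1.15, 0.37, −0.64 and −0.66 in KE+EpEX clones 1 to 4 and −0.01, −0.20, 0.24 and 0.71 in OE+EpEX clones 1 to 4. It ranged from −0.37 to −0.21 in OSKM clones and from −0.52 to −0.25 in mESC clones. KE+EpEX clone 1 was highest of its group at 11 of the 12 marker probe sets and OE+EpEX clone 4 at 11 of its own, beside 78.4% and 69.5% of the listed probe sets. Pdgfra was not raised in KE+EpEX clone 1 (−0.55, with a group mean of −0.61). Outside MEFs, Pdgfra, Pdgfrb and Zeb2 had their highest group mean in mESCs (0.48, 0.77 and 0.20), and no other marker did. No marker can be said to be at 0, since the values are centred. In MEFs the list stood out most at Postn (log2 difference of the MEF mean from the mean of the 4 other groups 6.78) and Prrx1 (6.62 at its highest probe set) and least at Zeb2 (4.89) and Twist1 (4.89). Against mESCs the markers called were Snai2, higher in OE+EpEX, Postn, higher in OSKM, and Pdgfra, a growth factor receptor of mesenchymal cells, which was 2.14-fold lower in KE+EpEX (−1.10, SE 0.28, adjusted p = 0.0120 in limma) and 3.33-fold lower in OSKM (−1.74, SE 0.28, adjusted p = 0.000480). Pdgfra was also 2.19-fold higher in OE+EpEX than in OSKM clones (1.13, SE 0.26, adjusted p = 0.0461 in limma). The pluripotency list (11 of 12 genes, among them Nanog, Sox2 and Sall4) was lowest in MEFs relative to the other groups at Nanog (−9.82) and Tdgf1 (−9.74) and closest to them at Pou5f1 (−5.20) and Sox2 (−6.44). It averaged from −0.05 to 0.10 in KE+EpEX clones, from −0.06 to 0.34 in OE+EpEX clones, from 0.01 to 0.09 in OSKM clones and from 0.72 to 0.76 in mESCs. All 11 were lower in MEFs. All 11 were also in the authors' list of probe sets higher than in MEFs, so this followed from the selection and is no check of the labels. The higher mean in mESCs lay mainly in Pou5f1, which encodes Oct4 and had a mean of 5.65 in mESCs against −0.10 to 0.43 in the iPSC groups, and in Zfp42, a marker of naive pluripotency, at 1.90 against −0.06 to 0.22. These were the 2 of 11 called against mESCs in each iPSC group, beside 3.43%, 3.89% and 3.73% of all probe sets. In OE+EpEX, KE+EpEX and OSKM clones, in this order, Pou5f1 was lower by 37.2-fold, 53.7-fold and 45.8-fold. Zfp42 was lower by 3.43-fold, 3.21-fold and 3.88-fold (adjusted p from 2.96e-07 to 5.64e-06 in limma for both genes). Pou5f1 was read at 1 probe set only. By Q-PCR, Western blotting and flow cytometry, the paper reports Oct4 RNA and protein of its iPSCs at levels like those of mouse ESCs. The reason for this contrast with the array values was not tested. None of the markers listed for endoderm, mesoderm and ectoderm had a symbol in the files, so those cell types were not checked. The part of fibroblast or feeder RNA in the raised values was not tested.

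Without KE+EpEX clones 1 and 2 and OE+EpEX clone 4, the clones with the highest means of the fibroblast markers, chosen after the values were seen, the KE+EpEX group was 0.19, 0.15 and 0.55 above mESCs on the log2 scale for Col1a1, Col3a1 and Col5a2 and none was called. In OE+EpEX clones the differences from mESCs were then 0.93, 1.10 and 1.56, with Col3a1 and Col5a2 called. Against OSKM the remaining KE+EpEX clones lay lower for all 3 genes, at −0.36, −0.39 and −0.91, and none was called. Since the highest clones were removed by choice, lower KE+EpEX and OE+EpEX means were bound to follow, and the OSKM difference could not change, as no OSKM or mESC clone was removed. A smaller pooled spread was bound to follow as well. The SE of Col3a1 in OE+EpEX against mESCs fell from 0.74 to 0.22, and the adjusted p of Col1a1 in OSKM from 0.529 to 0.0106 in limma. The added call of Col3a1 therefore cannot be read as support for a difference.

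**Figure D4:**
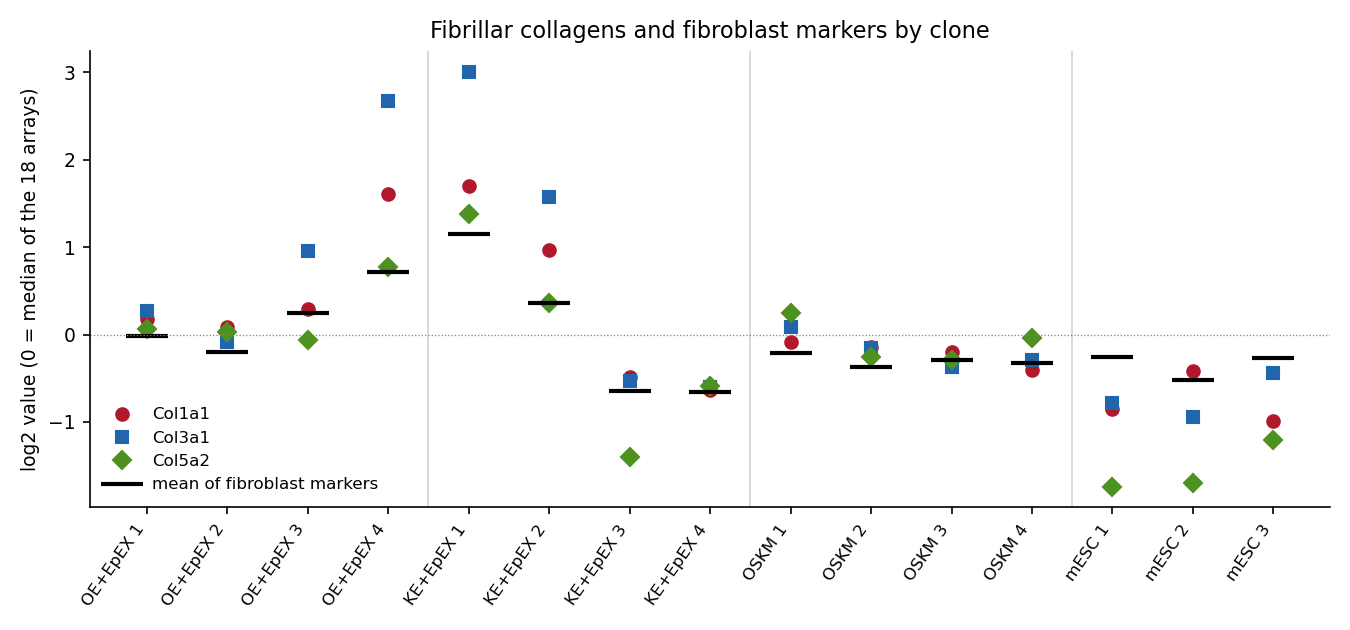
Centred log2 value (vertical axis) of the 3 collagens and mean over the 12 fibroblast and feeder marker probe sets in each of the 15 iPSC and mESC clones (horizontal axis). Col3a1 reaches 3.01 in KE+EpEX clone 1 and 2.67 in OE+EpEX clone 4, where the marker means are 1.15 and 0.71, and the values of Col5a2 are lower in each mESC clone than in each OSKM clone.

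The 3 collagens followed each other across clones. Over the 15 arrays without MEFs, Pearson's r was 0.96 between Col1a1 and Col3a1, 0.85 between Col1a1 and Col5a2 and 0.83 between Col3a1 and Col5a2. Without the 3 raised clones it was 0.79, 0.75 and 0.74 over 12 arrays. These are descriptions over arrays of the same groups, whose means differ. The probe sets most like the mean of the 3 collagens, of 928 with a symbol compared, were those of Nfix (r = 0.995), Prss23 (0.992), Rbms3 (0.992), Sdc2 (0.992) and Cxcl12 (0.992) over all 18 arrays. All 928 came from the authors' lists, and those lower than in MEFs share the collagens' selected step from MEFs to the other arrays. A high r over all 18 arrays was therefore bound to follow for them. Over the 15 arrays without MEFs they were those of Nfix (0.978), Rbms3 (0.970), Parp3 (0.961), Ogn (0.961) and Flrt2 (0.958). Nfix, a transcription factor of the nuclear factor I family, led both, with 1.29 in KE+EpEX clone 1 and 1.27 in OE+EpEX clone 4.

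Other collagens of the list were those of types VI and XII, which form beaded filaments and decorate the surface of fibrils. Of 5 probe sets for Col6a1, Col6a2, Col6a3 and Col12a1, all 5 were lower in MEF sample 1 than in samples 2 and 3, with a median log2 difference of −0.88 and Col12a1 at −0.03. The distance from MEFs was largest for Col6a1 (log2 difference of the MEF mean from the mean of the 4 other groups 6.55) and Col12a1 (5.70) and smallest for Col6a2 (4.72 and 5.60 at its probe sets) and Col6a3 (5.52). Against mESCs 1 of 5 was called in each iPSC group, and it was Col6a3 each time. Over all probe sets the shares called were 3.43%, 3.89% and 3.73% in OE+EpEX, KE+EpEX and OSKM clones. Col6a3 was 3.62-fold higher for OE+EpEX clones (log2 difference 1.86, SE 0.20), 2.49-fold for KE+EpEX clones (1.32, SE 0.20) and 2.36-fold for OSKM clones (1.24, SE 0.20), with adjusted p in limma of 1.64e-05, 0.000289 and 0.000474. Like Col5a2 it was called against mESCs in each group, and its KE+EpEX clone 1 stood at 0.32 and its OE+EpEX clone 4 at 0.80.

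Genes that modify, trim and cross-link collagen chains were represented by 4 of 33 listed genes and 5 probe sets. They were the prolyl 3-hydroxylase Leprel2, the endoplasmic reticulum chaperone Fkbp10, the lysyl oxidase family member Loxl1 and the procollagen N-proteinase Adamts2. None was called in any of the 6 comparisons, and the median difference from mESCs was 0.08 for OE+EpEX clones, 0.11 for KE+EpEX clones and −0.15 for OSKM clones. Their distance from MEFs was largest for Loxl1 (5.45) and Leprel2 (4.79) and smallest for Adamts2 (4.29 and 4.67) and Fkbp10 (4.61). Adamts2 had the widest gap among MEF samples of this set, with −5.18 and −3.16 for sample 1 against samples 2 and 3, and Fkbp10, like Col1a1, was not lower in sample 1 (0.25).

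Proteins bound to collagen fibrils and other matrix partners were represented by 11 of 22 genes and 20 probe sets. The distance from MEFs was largest for the small leucine-rich proteoglycans Ogn (7.85 and 7.56) and for Postn, the matricellular protein periostin (6.78), and smallest for Fmod, fibromodulin (3.78, 4.21 and 6.62), and Fbn1, fibrillin 1, at 1 of its probe sets (4.15, with 5.66 and 5.87 at the others). None of the 20 was called in OE+EpEX or KE+EpEX clones against mESCs, where 3.43% and 3.89% of all probe sets were called. The share of all probe sets was 3.73% in OSKM clones. In OSKM clones 1 was higher and 1 lower than in mESCs, Postn at 4.58-fold higher (log2 difference 2.19, SE 0.69, adjusted p = 0.0410 in limma) and 1 of 3 probe sets of Vcan, the proteoglycan versican, at 3.71-fold lower (−1.89, SE 0.52, adjusted p = 0.0196). The median difference from mESCs was 0.70 for OE+EpEX clones, 0.47 for KE+EpEX clones and 0.29 for OSKM clones, beside −0.05, −0.02 and −0.02 over all probe sets. KE+EpEX clone 1 and OE+EpEX clone 4 were each the highest of their group at 15 of 20, beside 78.4% and 69.5% of the listed probe sets.

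Collagen receptors and enzymes of turnover were represented by 6 of 18 genes and 13 probe sets, all of them matrix proteases or their inhibitors and none a receptor. The distance from MEFs was largest for Mmp3 (6.69), a stromelysin, and Timp2 (6.28 at its highest probe set), and smallest for Timp3 (4.39 at its lowest) and Mmp14 (4.53), a membrane-bound collagenase. None was called in any comparison, and all 13 were lower in MEF sample 1, with Mmp3 at −6.66. KE+EpEX clone 1 and OE+EpEX clone 4 were each highest at 12 of 13, beside 78.4% and 69.5% of the listed probe sets.

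Regulators of mesenchymal genes were represented by 7 of 20 genes and 13 probe sets. The distance from MEFs was largest for Prrx1 (6.62 at its highest probe set), a homeobox factor of mesenchyme, and Tgfb2 (6.54 at its highest), a ligand that induces matrix genes, and smallest for Twist2 (3.85) and for Tgfb2 at another probe set (4.02). Of these, 1 of 2 probe sets of Snai2, a zinc-finger repressor of epithelial genes, was called, 2.12-fold higher in OE+EpEX clones than in mESCs. Its log2 difference was 1.08 (SE 0.33, adjusted p = 0.0411 in limma). Of all probe sets 3.43% were called there, and no regulator was called in the other comparisons. KE+EpEX clone 1 was the highest of its group at 13 of 13 and OE+EpEX clone 4 at 10 of 13, beside 78.4% and 69.5% of the listed probe sets. Snai2, Twist1, Zeb2 and Prrx1 are also among the fibroblast markers, so these counts are not separate from theirs.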

How the data were processed

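RNA of 18 samples was hybridised to Affymetrix mouse expression arrays. The authors used GeneSpring GX and deposited log2 values that had been centred on each probe set's median over the 18 arrays (largest distance of a median from 0, 5e-07). The labels also name MAS5 and RMA without a role, so the normalization behind the values is not given in the sources used here. Signal over background is unknown, and 3 or 4 arrays per group limit the precision. The deposited lists and their fold ratios to the MEF mean were used only for gene symbols and membership.

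After removal of 64 control probe sets, 45037 were analysed. Groups came from the sample labels, and no pair of arrays held identical values. limma 3.58.1 (R 4.3.3; lmFit, eBayes) was fitted to the 15 arrays without MEFs, with p-values adjusted by Benjamini-Hochberg within each of 6 comparisons. On simulated data of the same size, from 94% to 99% of probe sets changed by a log2 value of 1.5 were called. The simulated noise was normal, with the same spread in each group, at probe sets drawn at random. The collagens had large and unequal spreads (for Col3a1 an SD of 1.75 in KE+EpEX and 0.20 in OSKM clones), so these shares do not hold for them. Pearson correlations, SDs and differences of means were computed in Python 3.11.15. Likeness was ranked over 928 probe sets with a symbol, and the 5 highest symbols were named. In each gene list the genes farthest from and nearest to MEFs were named, together with those called. Alternatives were all 18 arrays, only the compared groups, quantile normalization, median centring, a trended robust eBayes, other thresholds, the more variable probe sets, the study's unpaired t-test, a block for array numbers and leaving out single arrays. Same-numbered arrays of different groups did not deviate together (21 pairs, correlation from −0.362 to 0.254), so the numbers were not used as pairs. The members, gene lists and tests were chosen with earlier results of these data known.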

Additional observations from a re-analysis of the deposited data

Results flagged for a closer look

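OE+EpEX clone 4 stood apart from the other clones of its group for Col1a1, at 1.61 on the centred log2 scale against 0.08 to 0.29, and for Col5a2, at 0.77 against −0.06 to 0.07. In both, the gap to the next clone exceeded Dixon's 95% limit for 4 samples. Of 9 sets of 4 clones examined, 2 did so, beside 0.45 that chance gives at 1 in 20. Both are the same clone, already known to be raised when the genes were chosen, and the 3 genes follow each other across clones, so the sets are not independent and the count supports nothing further.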

How the results depend on the processing

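The call of 1 member, Col5a2, against mESCs in each iPSC group kept its count under median centring, a trended robust eBayes, the more variable probe sets, a 1.5-fold limit and no fold limit. With all 18 arrays in the fit, with quantile normalization and at an adjusted p under 0.01, 0 members were called in each of these 3 comparisons. With only the compared groups in the fit, 2 were called in OE+EpEX clones, 0 in KE+EpEX clones and 1 in OSKM clones. The t-test of the methods was read at p under 0.05 with no fold limit. It passed 2, 0 and 3 members before Benjamini-Hochberg adjustment, in the same order, against 10165, 9288 and 14027 of all 45037 probe sets. After adjustment it passed 1, 0 and 1, against 1873, 2014 and 8570. Of the 3 in OSKM clones, Col1a1 and Col3a1 had log2 differences of 0.54 each, below the limit of 1 used for calls. With a replicate block, although the numbers do not pair the samples, 1, 0 and 0 were called. Without the 3 raised clones, chosen after the data were seen, 2, 0 and 1 were called, with a pooled spread that the removal itself made smaller. KE+EpEX minus OSKM then turned to −0.36 for Col1a1, −0.39 for Col3a1 and −0.91 for Col5a2. Leaving out 1 array at a time gave from 0 to 2 called in OE+EpEX clones, from 0 to 2 in KE+EpEX clones and from 0 to 1 in OSKM clones. No member was called between iPSC groups under any alternative.

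The small differences between iPSC groups changed sign. Col5a2 in KE+EpEX minus OSKM was −0.018 with quantile normalization and ranged from −0.46 to 0.47 when 1 array was left out. OE+EpEX minus KE+EpEX ranged from −0.20 to 0.60 for Col1a1, from −0.48 to 0.81 for Col3a1 and from −0.18 to 0.74 for Col5a2. The MEF mean minus the mean of the 4 other groups was 5.28, 7.76 and 6.51 for Col1a1, Col3a1 and Col5a2. It was 5.49, 5.28 and 4.997 with MEF sample 1 alone and 1.82, 2.86 and 2.52 with quantile normalization, which gives centred arrays of unequal spread the same distribution.

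Over all probe sets, the counts called at the same thresholds were 1547, 1754 and 1678 against mESCs (OE+EpEX, KE+EpEX and OSKM) and 545, 643 and 1005 with quantile normalization. Between OE+EpEX and OSKM the count of 44 ranged from 3 to 384 over the alternatives at these thresholds, that of 1 between KE+EpEX and OSKM from 0 to 247, and that of 0 between OE+EpEX and KE+EpEX from 0 to 90. At a 1.5-fold limit the counts against mESCs were 3658, 4288 and 4379, and with no fold limit 6406, 7503 and 7643. Other causes of these changes were not tested. As signal over background is unknown, dim probe sets could not be set aside.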
